A study of Homo sapiens with 14 samples.

Results

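The 10 arrays of inhibitor-resistant OVCAR-3 sublines were pooled by subline and compared with the 4 arrays of the parental line, so all 14 arrays of the study entered the comparison. OVCAR-3 is an established human cell line from a high-grade serous ovarian carcinoma, and PHA-533533 is a small-molecule inhibitor of the cell cycle kinase CDK2. Sublines R1, R3, R5, R6 and R7 were derived independently for resistance to it. Each subline was arrayed once at passage 5 during culture in 4 µM PHA-533533 (selected cultures) and once at passage 10 or later after culture in 0 µM (stable cultures). The parental cells grew in 0 µM in the same medium, and their passage is not given in the sources used here. Nothing in the labels tells whether a subline is a clone or the 4 parental replicates came from separate cultures. The p-values therefore measure only how far these samples spread, which may be technical. Inhibitor and passage number changed together between selected and stable cultures, and resistance and time in culture cannot be told apart between sublines and parental cells.

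The selected and stable arrays of a subline were averaged, which gave 5 resistant values for each of 18398 genes to set against 4 parental values. A gene was called where limma's test of this difference had an adjusted p under 0.05 over all 18398 genes. A gene was held where all 10 resistant arrays lay on the same side of all 4 parental arrays, that is, with and without inhibitor in every subline. The held rule is a description with no test of its own, and by this rule 153 of 18398 genes were held. Values are log2 signal, so a difference of 1 is a doubling, and signals of different genes are not on one scale because each gene has its own probes. With 14 arrays, their number limits the precision.

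CDK2 with its partners cyclin E and cyclin A drives cells into and through DNA replication. Cyclin E1 is encoded by CCNE1, a gene that is often amplified in high-grade serous carcinoma and that OVCAR-3 carries in extra copies. Mitogens act upstream of this step through the MAP kinase cascade, which turns on immediate early genes such as FOS and EGR1 within minutes and is then switched off again by phosphatases of the DUSP family. Cells also receive growth and survival signals from the surrounding matrix through integrins and CD44, and secreted matrix proteins such as LTBP1 hold growth factors of the TGF-beta family in a latent form.

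The 14 arrays were closely related. The lowest correlation between any 2 arrays over all 32295 table rows was 0.967 and the highest 0.995. The ovarian and epithelial markers PAX8, EPCAM, KRT7, KRT8 and KRT18 lay between the 98.0 and 99.7 percentile of mean signal, MUC16 at the 91st percentile and WT1 at the 76.2 percentile, and none of them was called. Mean signal of 340 olfactory receptor genes, used as a gauge of background, was 6.42 ± 0.20 (SD, n = 5) in resistant sublines and 6.42 ± 0.22 (SD, n = 4) in parental arrays, with a two-sided exact permutation p of 1. The mean signal of marker lists for other cells is given as a range over 5 resistant subline means and over 4 single parental arrays. For 11 fibroblast genes it ran from 6.82 to 7.0 in subline means and from 6.82 to 7.12 in parental arrays. For 11 leukocyte genes it ran from 6.69 to 6.93 in subline means and 6.72 to 6.96 in parental arrays. The range was 6.85 to 6.97 in subline means and 6.86 to 7.02 in parental arrays for 10 endothelial genes. It was 7.80 to 8.0 in subline means and 7.79 to 7.95 in parental arrays for 9 mesothelial genes. None of these marker genes was called.

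Against this background, 177 of 18398 genes (0.962%) were called, with 109 genes (0.592%) higher and 68 genes (0.370%) lower in the resistant sublines. Held genes numbered 76 above (0.413%) and 77 below (0.419%) the parental arrays. Both criteria were met by 73 genes, 39 higher and 34 lower. That is 41.2% of the called genes and 47.7% of the held genes. The count of called genes moved strongly with single arrays, to 6 without parental array 4, 23 without parental array 1, 10 without subline R7 and 9 without the selected array of R3, against 273 without the stable array of R6. Without parental array 4 the called genes were NID2, SEL1L3, TMEM178A, LTBP1, AQP5 and ZNF251, and every other gene named here as called lost its call. In bulk RNA, fewer cells that express a gene and less RNA per cell cannot be told apart.

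Most differences of the held genes were small. Of the 76 genes above the parental range, 2 differed by at least 1 log2 unit, 23 by 0.5 to 1 and 51 by less. Among the 77 below it, 4 differed by at least 1, 13 by 0.5 to 1 and 60 by less. The median difference was 0.39 for the higher and -0.33 for the lower genes. The gap between the nearest resistant and the nearest parental array had a median of 0.040 and 0.054, and it reached 0.25 in only 4 genes, LTBP1 (0.71), TMEM178A (0.65), NID2 (0.54) and SEL1L3 (0.36). After quantile normalization of the arrays 98 of the 153 were still held, and DEGS1, KLK5, KLK7, CKB, ICAM1, GSR, POSTN, CBX7 and UGT8 were not.

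**Figure D1:**
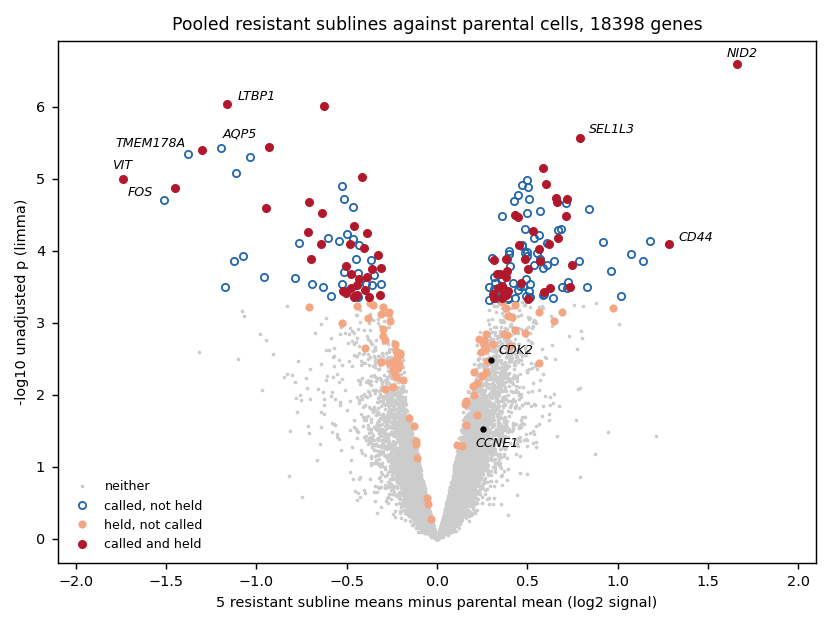
Each point is 1 of 18398 genes, with the mean of 5 resistant sublines minus the mean of 4 parental arrays in log2 signal on the x axis and -log10 of the unadjusted limma p on the y axis. Filled dark red points were both called and held (73 genes), open blue points called but not held (104), orange points held but not called (80), and CDK2 and CCNE1 lie among the genes that were neither.

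The cyclin and the kinase at which the inhibitor is aimed were neither called nor held. CCNE1 measured 11.61, 11.07, 11.22, 11.61 and 11.43 in the selected cultures of R1, R3, R5, R6 and R7, 11.16, 11.15, 10.70, 11.11 and 10.89 in their stable cultures, and 10.89, 11.13, 10.77 and 10.98 in parental arrays. Of the 5 selected values 4 lay above the parental range, whereas the stable values ran from below to just above it. Its pooled difference was 0.25 (SE 0.10, limma adjusted p = 0.300). CDK2 measured 10.31, 9.84, 10.25, 9.95 and 10.28 in selected cultures, 10.22, 10.17, 10.10, 9.92 and 9.95 in stable cultures, and 9.82, 9.93, 9.71 and 9.73 in parental arrays. Only parental array 2 reached into the resistant range, and the difference was 0.30 (SE 0.08, adjusted p = 0.111). Among 20 measured genes of CDK2 and cyclin E regulation 1 was called higher and 1 lower, against 0.592% and 0.370% of all genes. CCNA1, the gene of cyclin A1, rose by 0.92 (SE 0.15, adjusted p = 0.0239), and WEE1, the kinase that places the inhibitory phosphate on CDK1 and CDK2, fell by 0.79 (SE 0.15, adjusted p = 0.0393). Neither was held. For CCNA1 the stable array of R5 (8.98) lay among the parental values, and for WEE1 the stable array of R3 (10.78) and the selected array of R1 (10.27).

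Of the genes that were both called and held, NID2, CD44 and SEL1L3 had the largest rises. Called rises of at least 1 numbered 6, and NID2 and CD44 were the 2 of these that were held. NID2, a basement membrane protein that links laminin to collagen IV, measured 11.74, 11.25, 10.98, 11.53 and 11.95 in selected cultures, 11.60, 12.32, 11.95, 10.79 and 11.05 in stable cultures, and 10.25, 9.84, 9.55 and 9.79 in parental arrays. Every resistant array lay at least 0.54 above the highest parental array, and the state with the higher value changed from subline to subline. The pooled difference was 1.66 (SE 0.15, adjusted p = 0.00475), the largest rise among the held genes. CD44, the receptor for hyaluronan, measured 10.72, 10.17, 10.51, 9.60 and 10.57 in selected cultures, 9.66, 11.03, 10.31, 9.22 and 9.54 in stable cultures, and 8.81, 9.09, 8.50 and 9.0 in parental arrays. R6 was the lowest subline in both states, and its stable array lay 0.13 above the parental range. CD44 rose by 1.28 (SE 0.21, adjusted p = 0.0239). SEL1L3 measured 9.95, 10.29, 10.21, 10.49 and 10.61 in selected cultures, 10.14, 10.40, 10.28, 9.96 and 10.04 in stable cultures, and 9.59, 9.57, 9.38 and 9.24 in parental arrays. The resistant arrays spanned a narrow range here, and the rise was 0.79 (SE 0.09, adjusted p = 0.0103).

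The largest falls among called and held protein-coding genes were those of VIT, TMEM178A, LTBP1, DUSP1 and AQP5. VIT, the gene of the matrix protein vitrin, measured 8.28, 7.93, 7.31, 7.48 and 7.38 in selected cultures, 9.0, 6.93, 7.44, 7.52 and 7.70 in stable cultures, and 9.22, 9.57, 9.55 and 9.41 in parental arrays. R1 stood nearer the parental cells than the other sublines, and VIT fell by 1.74 (SE 0.23, adjusted p = 0.0131). LTBP1, which ties latent TGF-beta to the matrix, measured 10.88, 10.46, 10.44, 10.44 and 10.58 in selected cultures, 10.93, 10.24, 10.23, 10.92 and 10.99 in stable cultures, and 11.76, 11.89, 11.70 and 11.74 in parental arrays. It had the widest gap of all held genes and fell by 1.16 (SE 0.12, adjusted p = 0.00602). TMEM178A encodes a membrane protein that restrains calcium signalling in mouse osteoclasts. It measured 9.50, 9.07, 9.47, 8.95 and 8.98 in selected cultures, 9.59, 9.09, 9.01, 9.35 and 9.39 in stable cultures, and 10.99, 10.26, 10.68 and 10.23 in parental arrays. Parental arrays 1 and 3 stood above parental arrays 2 and 4, with the resistant arrays clear of both pairs, and the gene fell by 1.30 (SE 0.15, adjusted p = 0.0103). AQP5, a water channel of secretory epithelia, measured 8.54, 9.26, 9.23, 8.46 and 8.79 in selected cultures, 8.70, 8.68, 8.68, 8.74 and 8.67 in stable cultures, and 9.84, 9.73, 9.81 and 9.43 in parental arrays. The stable values were nearly alike while the selected values spread between sublines, and AQP5 fell by 0.93 (SE 0.11, adjusted p = 0.0103). The non-coding RNA LINC00312, named after its values were seen, fell by 1.45 (SE 0.20, adjusted p = 0.0131), with 6.55 to 8.42 in resistant and 8.63 to 8.88 in parental arrays.

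NID2, SEL1L3, LTBP1, TMEM178A and AQP5 were the only genes that kept their call under all 31 alternative fits and left-out arrays, and all 5 were held. A demand for a difference of at least 1 beside the adjusted p is not among these 31, and SEL1L3 and AQP5 fall short of it.

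**Figure D2:**
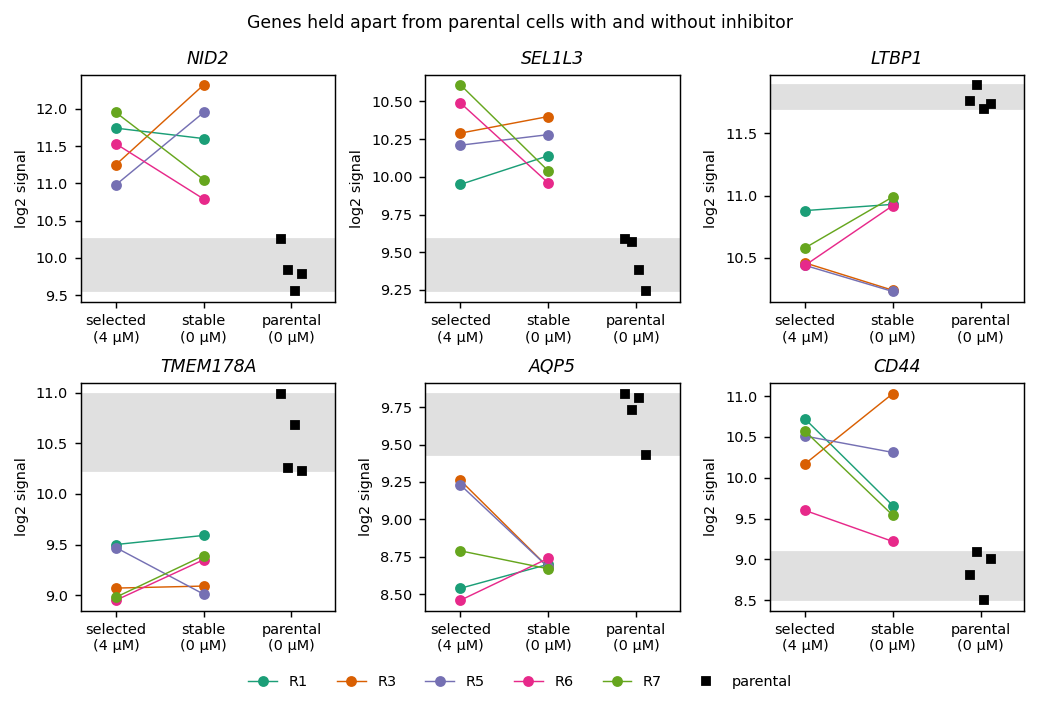
Log2 signal (y axis) of NID2, SEL1L3, LTBP1, TMEM178A, AQP5 and CD44 in each array, by growth state (x axis), with a line joining the selected and stable arrays of each subline and a grey band over the range of the 4 parental arrays. All 10 resistant points lie outside the band in each panel, nearest to it for the stable array of R6 in CD44 (0.13) and farthest in LTBP1 (0.71).

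The promoter windows of these 5 genes and of DUSP1, a held gene described further on, are printed because these genes stayed outside the parental range in every subline and both states. They come from RefSeq (GRCh38.p14), run 5′ to 3′ on the gene's strand from 250 bases before to 50 after its start, and were available for 114 of the 153 held genes. Capitals mark matches on either strand to TATAAA, TGACGTCA (the cAMP response element), TGANTCA (the AP-1 element), CACGTG (the E-box), CCAAT or GGGCGG (the GC box), some of which overlap. NID2 lies at chr14:52069010-52069309 on the minus strand, SEL1L3 at chr4:25863517-25863816 on the minus strand, LTBP1 at chr2:32946703-32947002 on the plus strand, TMEM178A at chr2:39665233-39665532 on the plus strand, AQP5 at chr12:49961622-49961921 on the plus strand and DUSP1 at chr5:172771146-172771445 on the minus strand.
NID2: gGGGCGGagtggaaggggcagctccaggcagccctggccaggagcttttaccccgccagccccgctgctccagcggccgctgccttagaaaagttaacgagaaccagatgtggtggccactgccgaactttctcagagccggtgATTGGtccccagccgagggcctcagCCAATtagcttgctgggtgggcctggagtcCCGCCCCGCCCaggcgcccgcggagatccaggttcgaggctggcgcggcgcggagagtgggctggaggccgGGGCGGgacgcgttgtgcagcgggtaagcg
SEL1L3: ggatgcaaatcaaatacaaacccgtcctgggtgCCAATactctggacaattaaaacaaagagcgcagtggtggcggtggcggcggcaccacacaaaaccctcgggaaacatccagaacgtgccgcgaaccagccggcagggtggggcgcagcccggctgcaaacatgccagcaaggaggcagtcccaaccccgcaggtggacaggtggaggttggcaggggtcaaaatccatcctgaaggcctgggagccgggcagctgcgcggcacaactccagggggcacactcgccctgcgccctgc
LTBP1: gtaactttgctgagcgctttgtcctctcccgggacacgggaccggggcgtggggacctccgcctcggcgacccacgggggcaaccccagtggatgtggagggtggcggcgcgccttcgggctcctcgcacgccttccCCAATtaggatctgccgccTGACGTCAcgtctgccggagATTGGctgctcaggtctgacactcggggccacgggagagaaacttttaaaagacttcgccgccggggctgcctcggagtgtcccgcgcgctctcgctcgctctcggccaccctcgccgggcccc
TMEM178A: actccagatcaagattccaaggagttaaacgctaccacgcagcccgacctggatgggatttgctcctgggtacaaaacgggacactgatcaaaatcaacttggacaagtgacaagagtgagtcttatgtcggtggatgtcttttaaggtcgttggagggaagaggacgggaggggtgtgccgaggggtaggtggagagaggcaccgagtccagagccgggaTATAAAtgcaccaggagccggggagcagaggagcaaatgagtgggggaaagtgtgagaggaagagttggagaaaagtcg
AQP5: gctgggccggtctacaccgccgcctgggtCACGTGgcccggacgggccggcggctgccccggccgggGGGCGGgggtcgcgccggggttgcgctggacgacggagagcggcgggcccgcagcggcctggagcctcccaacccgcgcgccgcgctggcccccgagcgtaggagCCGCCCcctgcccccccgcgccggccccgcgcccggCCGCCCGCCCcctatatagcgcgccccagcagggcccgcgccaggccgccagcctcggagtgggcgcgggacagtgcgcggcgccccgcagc
DUSP1: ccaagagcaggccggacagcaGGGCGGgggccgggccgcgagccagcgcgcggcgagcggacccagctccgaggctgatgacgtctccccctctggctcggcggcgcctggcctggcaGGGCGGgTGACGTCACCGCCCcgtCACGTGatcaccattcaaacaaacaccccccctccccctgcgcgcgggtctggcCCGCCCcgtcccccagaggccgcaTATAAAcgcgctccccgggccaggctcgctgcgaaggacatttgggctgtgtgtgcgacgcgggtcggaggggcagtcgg

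No motif searched was shared by all 6 windows. LTBP1 and DUSP1 held the full cAMP response element, found in 1.98% of all 27305 promoter windows, at -94 and -125 from the start. TMEM178A and DUSP1 held a TATAAA at -29 and -30 (12% of windows), and AQP5 and DUSP1 an E-box (7.43%). CCAAT was present in NID2, SEL1L3 and LTBP1 (35.7% of windows), and the GC box in NID2, AQP5 and DUSP1 (44.6%). TGANTCA (7.76% of windows) was in none of the 6. Their GC content ran between 53.3% in TMEM178A and 84.0% in AQP5, against a median of 58.3% over all windows. A match is a description of letters only, and no binding was measured.

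Held signalling genes went both ways, with rises of FGF2, TLR3 and EGF and a fall of C5AR1, a set that was not a fixed list. FGF2, a fibroblast growth factor, measured 9.92, 9.43, 9.52, 9.26 and 9.60 in selected cultures, 9.0, 8.90, 9.40, 8.97 and 9.29 in stable cultures, and 8.58, 8.76, 8.55 and 8.76 in parental arrays. It was higher in the selected than in the stable array of all 5 sublines and rose by 0.67 (SE 0.09, adjusted p = 0.0136) in the pooled comparison. TLR3, a receptor of double-stranded RNA, measured 8.14, 8.05, 8.13, 8.10 and 8.46 in selected cultures, 7.51, 7.48, 8.30, 7.69 and 7.62 in stable cultures, and 7.33, 7.11, 7.43 and 7.08 in parental arrays. Only R5 kept the selected level in its stable culture, and the pooled rise was 0.71 (SE 0.11, adjusted p = 0.0159). EGF, the ligand of the EGF receptor, was named after its values were seen. It measured 6.51 to 7.01 over the 10 resistant arrays and 6.24 to 6.43 in parental arrays, and rose by 0.43 (SE 0.06, adjusted p = 0.0159). C5AR1, the receptor of complement fragment C5a, measured 7.31, 7.59, 7.48, 7.57 and 7.22 in selected cultures, 7.60, 7.25, 7.47, 7.38 and 7.56 in stable cultures, and 7.65, 7.81, 7.81 and 7.94 in parental arrays. The subline means were nearly alike, at 7.39 to 7.48, and C5AR1 fell by 0.36 (SE 0.07, adjusted p = 0.0334).

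Further called and held rises were smaller than that of SEL1L3 and came from genes of several kinds. ATP1B1, the beta subunit of the sodium pump, ranged from 8.97 to 9.69 in resistant and from 8.34 to 8.88 in parental arrays, and rose by 0.72 (SE 0.10, adjusted p = 0.0136). DEGS1, which desaturates dihydroceramide to ceramide, ranged from 9.90 to 10.79 in resistant and from 9.41 to 9.88 in parental arrays, a rise of 0.74 (SE 0.14, adjusted p = 0.0435). Its stable R6 array lay only 0.02 above parental array 1. MANEA, a Golgi mannosidase of N-glycan trimming, rose by 0.62 (SE 0.10), and RAB27B, a GTPase of secretory vesicles, rose by 0.62 (SE 0.12). CCDC68, a coiled-coil protein, rose by 0.75 (SE 0.13), and the zinc finger gene ZBTB41 by 0.66 (SE 0.09), with adjusted p between 0.0136 and 0.0435 for these 4 genes. QPCT, the glutaminyl cyclase of secreted peptides, was held with 8.36 to 10.01 in resistant and 8.05 to 8.33 in parental arrays. Its difference of 0.98 (SE 0.21) did not pass (adjusted p = 0.0556), and it was named after its values were seen.

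Held rises smaller than these included CKB and CASP4. CKB, brain-type creatine kinase, rose by 0.57 (SE 0.10, adjusted p = 0.0285), and the inflammatory caspase CASP4 by 0.53 (SE 0.08, adjusted p = 0.0221). Further held genes, named after their values were seen, were the hypoxia regulator HIF1A at 0.31 (SE 0.06, adjusted p = 0.0489), the complement regulator CD46 at 0.34 (SE 0.07, adjusted p = 0.0435) and the annexin ANXA1 at 0.31 (SE 0.08, adjusted p = 0.0940), of which the last was not called. UGT8, which makes galactosylceramide, rose by 0.38 (SE 0.07) and PGC, a pepsinogen, by 0.36 (SE 0.07), and the nearest resistant array of both lay 0.02 above the parental range.

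Of the called and held falls of protein-coding genes, RGCC, NCALD, ATP6V0D2, CYFIP2, ZNF251, NOVA1 and CCN1 followed VIT, TMEM178A, LTBP1, DUSP1 and AQP5 in size. RGCC, a cell cycle regulator induced by complement, fell by 0.71 (SE 0.11), and NCALD, a neuronal calcium sensor, by 0.71 (SE 0.10). ATP6V0D2, a subunit of the proton pump that acidifies lysosomes, fell by 0.70 (SE 0.12), and CYFIP2, a subunit of the WAVE complex that builds branched actin, by 0.64 (SE 0.11). ZNF251 fell by 0.62 (SE 0.06), and the splicing regulator NOVA1 by 0.52 (SE 0.10). The adjusted p of these 6 genes lay between 0.00602 and 0.0458. FNBP1, a protein that bends membranes during endocytosis, fell by 0.46 (SE 0.09, adjusted p = 0.0486), with 9.18 to 9.64 in resistant and 9.74 to 10.07 in parental arrays. NEDD9, a scaffold of integrin signalling that was named after its values were seen, was held at a difference of -0.71 (SE 0.15, adjusted p = 0.0549) and was not called.

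ZNF251, a zinc finger gene, had the smallest error of these genes and separated by growth state as well. It measured 8.08, 7.74, 8.13, 7.94 and 8.01 in selected cultures, 8.74, 8.69, 8.37, 8.56 and 8.47 in stable cultures, and 8.90, 9.0, 8.81 and 8.88 in parental arrays. All selected arrays lay below all stable arrays, which in turn lay below all parental arrays.

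Genes of the MAP kinase response were partly held. Over all genes 0.592% were called higher and 0.370% lower, and 0.413% were held higher and 0.419% lower. The list of MAPK output and feedback genes had 1 of 23 measured members higher and 2 lower, and all 3 were held. DUSP1, a phosphatase that inactivates MAP kinases, measured 9.84, 9.73, 9.42, 9.57 and 9.75 in selected cultures, 9.15, 9.82, 8.80, 8.71 and 8.84 in stable cultures, and 10.38, 10.40, 10.04 and 10.40 in parental arrays. In 4 of 5 sublines the stable array was the lower one, R3 being the exception, and DUSP1 fell by 0.94 (SE 0.14, adjusted p = 0.0152). CCN1, a secreted matrix protein and target of the YAP pathway, measured 11.21, 10.96, 11.17, 10.82 and 11.13 in selected cultures, 11.12, 11.48, 11.40, 10.81 and 11.11 in stable cultures, and 11.68, 11.63, 11.56 and 11.64 in parental arrays. Stable R3 and R5 came closest to the parental arrays, and the fall was 0.51 (SE 0.09, adjusted p = 0.0314). DUSP4, a phosphatase that is induced by ERK and acts on it, measured 7.55, 7.32, 7.50, 7.31 and 7.71 in selected cultures, 7.33, 8.24, 7.63, 7.35 and 7.67 in stable cultures, and 7.02, 7.05, 7.03 and 7.14 in parental arrays. It thus differed in the opposite direction to DUSP1, and rose by 0.50 (SE 0.09, adjusted p = 0.0334).

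Of all 18398 genes 0.370% were called lower and 47.4% had a difference above 0, with a median of -0.01. The immediate early list had 3 of 23 measured genes lower and 0 higher, with 1 of 23 differences above 0 and a median of -0.18. None of the 3 was held. FOS measured 10.05, 10.14, 10.16, 10.92 and 10.34 in selected cultures, 9.46, 8.01, 8.17, 8.20 and 8.07 in stable cultures, and 10.45, 11.26, 10.44 and 11.31 in parental arrays. Selected R6 lay within the parental range, the other 4 selected arrays lay under it, and all 5 stable arrays lay far below. FOS fell by 1.51 (SE 0.21, adjusted p = 0.0136) in the pooled comparison, with -0.54 for selected and -2.48 for stable cultures against the same parental arrays. FOSB, its close relative, measured 8.51, 8.59, 8.56, 9.16 and 8.70 in selected cultures, 8.19, 7.96, 8.26, 8.29 and 8.25 in stable cultures, and 9.15, 10.05, 9.06 and 10.22 in parental arrays. It missed the held rule through selected R6 alone and fell by 1.17 (SE 0.23, adjusted p = 0.0435). EGR1 missed it by 0.03, also through selected R6 (12.17, against 12.14 in parental array 3), and its pooled difference was -1.07 (SE 0.19, adjusted p = 0.0285). Parental arrays 2 and 4 were higher than 1 and 3 for all 3 genes.

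**Figure D3:**
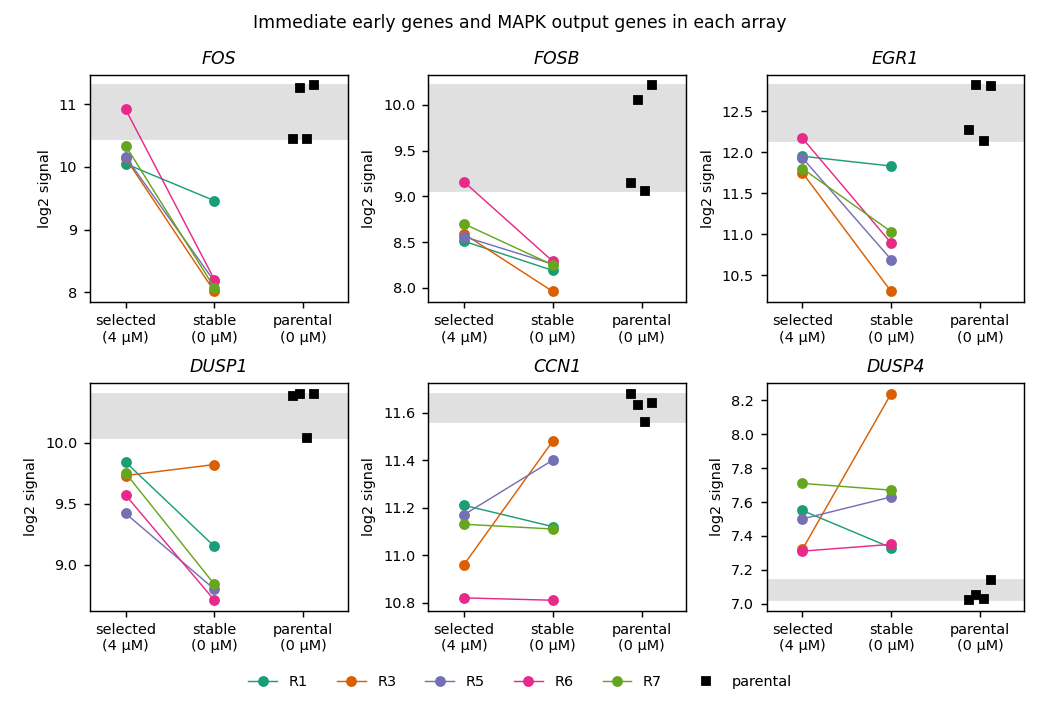
Log2 signal (y axis) of FOS, FOSB, EGR1, DUSP1, CCN1 and DUSP4 by growth state (x axis), with a line for each subline and a grey band over the 4 parental arrays. FOS, FOSB and EGR1 have selected R6 inside the band, while DUSP1 and CCN1 lie below it and DUSP4 above it in all 10 resistant arrays.

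Adhesion and protease lists held further members. The CD44 and integrin list had 2 of 20 genes higher, CD44 and ITGA2, with 17 of 20 differences above 0 and a median of 0.09. Among all genes 0.592% were called higher and 47.4% of differences were above 0. ITGA2, a collagen receptor subunit, rose by 0.83 (SE 0.16, adjusted p = 0.0435) and missed the held rule because stable R7 and parental array 1 were both at 7.64. ITGA6, a laminin receptor subunit, had a difference of 0.47 (SE 0.10), short of the threshold (adjusted p = 0.0628). Of 16 kallikrein-related peptidases, a family of secreted serine proteases, 1 was called. KLK5 ranged from 10.26 to 10.82 in resistant and from 9.56 to 10.08 in parental arrays and rose by 0.67 (SE 0.11, adjusted p = 0.0239). Its neighbour in the family KLK7 was held with a difference of 0.49 (SE 0.12) that did not pass (adjusted p = 0.0826). PLAU, the urokinase protease, was the 1 gene called of 22 on the metalloproteinase and protease list, at 0.84 (SE 0.12, adjusted p = 0.0153), and was not held. On the basement membrane list NID2 rose, VIT fell and 24 of 26 genes were not called. On the mesenchymal list EFEMP1, a fibulin of the matrix, fell by 1.13 (SE 0.20, adjusted p = 0.0285) and 17 of 18 were not called.

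Several lists leaned to one side with few or no calls. For comparison, 47.4% of all 18398 genes had a difference above 0, with a median of -0.01. Of all genes, 0.592% were called higher and 0.370% lower. Of 38 interferon response genes 2 rose, SAMD9 by 0.79 (SE 0.14, adjusted p = 0.0285) and SAMD9L by 0.40 (SE 0.07, adjusted p = 0.0318), both neighbouring antiviral genes of chromosome 7. Neither was held, and 30 of 38 differences were above 0 with a median of 0.17. Of 31 cytosolic ribosomal protein genes 2 fell and 1 had a difference above 0, with a median of -0.14. RPS24 fell by 0.63 (SE 0.12) and RPL7A by 0.36 (SE 0.07), both with an adjusted p of 0.0435 and neither held. RPS9, at -0.37 (SE 0.08, adjusted p = 0.0534), and RPL3, at -0.22 (SE 0.06, adjusted p = 0.117), were held without being called, and RPS9 rested on the table row kept for it, since with the mean of its rows its difference was -0.02. Lysosome and autophagy genes had 1 of 35 higher, the protease CTSL at 0.36 (SE 0.05, adjusted p = 0.0159), and 1 lower, ATP6V0D2, with 31 of 35 above 0. The median of this list was 0.28 in selected cultures and -0.02 in stable cultures, and CTSL differed by 0.68 in selected and 0.04 in stable cultures, all against the same parental arrays. The interferon list had medians of 0.13 in selected and 0.22 in stable cultures, and the ribosomal list -0.22 and -0.08. Of 30 NRF2 and xenobiotic genes 23 were above 0 and 0 were called, with medians of 0.22 in selected and 0.08 in stable cultures, and glutathione reductase GSR was held at 0.39 (SE 0.09, adjusted p = 0.0639). Around CCNE1 on 19q12, 3 of 25 genes had a difference above 0, with a median of -0.12 and 0 calls.

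With 0.962% of all 18398 genes called, a list without a call says little about its members. In 24 of the 39 lists no member was called. Among these were E2F targets and DNA replication (39 genes, median 0.04), mitosis (35 genes, 0.01), homologous recombination (21 genes, 0.05), p53 targets (23 genes, 0.08), ABC transporters (19 genes, 0.01), keratins (14 genes, 0.05), epithelial state (22 genes, 0.09), the WNT pathway (33 genes, -0.01), cholesterol synthesis (21 genes, -0.09) and NF-kB targets (23 genes, -0.10). ICAM1, an adhesion receptor on the NF-kB list, was held at 0.57 (SE 0.12) without being called (adjusted p = 0.0598). On the fibroblast list POSTN was held at -0.20 (SE 0.05, adjusted p = 0.106), at 5.18 to 5.34 in resistant and 5.39 to 5.53 in parental arrays in a table that runs from 4.34 to 14.9.

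Growth state differences were called in a few held genes, at a share near that of all genes. Within sublines, 906 of 18398 genes (4.92%) were called between selected and stable cultures, 665 of them higher in selected cultures, and 8 of the 153 held genes (5.23%) were among these. On average, selected arrays were farther from parental cells than stable arrays in 64 of 76 higher and 52 of 77 lower held genes. The same share was not taken over all genes, so this may not be particular to the held genes. Median differences of the held higher genes were 0.47 in selected and 0.33 in stable cultures. Those of the held lower genes were -0.36 and -0.30, and both sets were taken against the same 4 parental arrays. A limma fit of all arrays, with selected, stable and parental cultures as separate groups, tested each growth state against the parental arrays. At an adjusted p under 0.05, 993 of 18398 genes passed in selected and 8 in stable cultures. Of the 153 held genes, 110 passed in selected and 5 in stable cultures. The held rule had chosen these genes from the same arrays, for lying outside the parental range. Their counts are therefore a description and cannot be weighed against the counts over all genes. Called genes that were not held numbered 104, and 1 of them had selected and stable differences of opposite sign. In all 5 sublines the selected array had the lower olfactory receptor mean, at 6.06, 6.26, 6.50, 6.60 and 6.32 against 6.18, 6.39, 6.60, 6.63 and 6.70 in the stable arrays. With this mean as a covariate beside the subline block limma called 0 genes (1309 at an unadjusted p under 0.05), against 906 without it (3818), and its part in the growth state differences was not tested.

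Set side by side, the differences of each growth state from parental cells share the 4 parental arrays. NID2 differed by 1.64 in selected and 1.69 in stable cultures, VIT by -1.76 and -1.72, LTBP1 by -1.21 and -1.11, and AQP5 by -0.85 and -1.01. The means of both states lay within 0.17 of each other for these 4 genes, and the differences within sublines did not pass (limma adjusted p = 0.545 to 0.950). Single sublines differed more, in opposite directions. NID2 was 11.25 in selected and 12.32 in stable R3, but 11.95 and 11.05 in R7. VIT was 8.28 and 9.0 in R1, but 7.93 and 6.93 in R3. DUSP1 differed by -0.64 in selected and -1.24 in stable cultures, and ZNF251 by -0.92 and -0.33. Here the states differed within sublines, by 0.60 (SE 0.14, adjusted p = 0.0425) for DUSP1 and -0.58 (SE 0.10, adjusted p = 0.0216) for ZNF251.

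**Figure D4:**
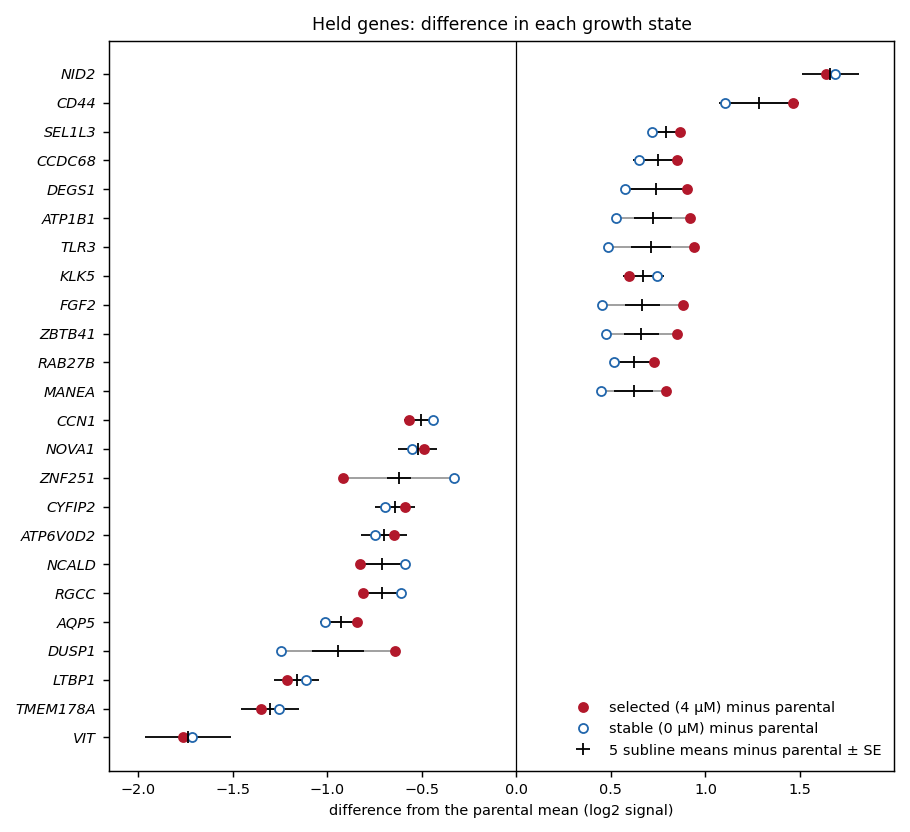
Difference from the parental mean in log2 signal (x axis) for the 12 largest held rises and 12 largest held falls among called protein-coding genes (y axis), with selected cultures as filled red points, stable cultures as open blue points and the pooled difference ± SE as a black bar. Each point is a mean over sublines. NID2, VIT, TMEM178A and LTBP1 have both points together, whereas DUSP1 is farther out in stable and ZNF251 in selected cultures.

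The held rule asks all 5 sublines to lie on one side of the parental arrays, so the spread between sublines in held genes is given as a description. Between sublines 22 of 18398 genes (0.120%) were called, and 0 of the 153 held genes were among them by limma's F test. With a share this low over all genes, the 0 says nothing particular about the held genes. At an unadjusted p under 0.05 it was 14 of 153 held genes and 2914 of all genes. The range of the 5 subline means had a median of 0.26 in held higher genes, 0.21 in held lower genes and 0.29 in all genes. Over the 39 genes that were both called and held higher, the median difference was 0.56, 0.50, 0.47, 0.37 and 0.51 for R1, R3, R5, R6 and R7, and R6 was the subline nearest to parental cells in 19 of them. Over the 34 that were called and held lower the same sublines gave -0.45, -0.51, -0.49, -0.49 and -0.51, and R1 was nearest in 18. VIT showed this most clearly, at 8.64 in R1 and 7.38 to 7.54 in the other 4 sublines.

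Held genes were unevenly placed over the chromosomes, a pattern chosen after its values were seen. Of 423 measured genes on chromosome 22, 18 (4.26%) were held lower and 0 held higher, and 14 were called lower and 0 higher. They made up 23.4% of all held lower genes, on a chromosome with 2.3% of the genes measured. Differences were below 0 in 76.1% of chromosome 22 genes and in 52.6% of all genes. Such a lean was not particular to it, with 235 of 316 below 0 on chromosome 13 and 542 of 781 on chromosome 5. On chromosome 4 it was 270 of 710. Taken in the order R1, R3, R5, R6 and R7, the median difference of chromosome 22 was -0.11, -0.07, -0.05, -0.06 and -0.12. Each parental array against the other parental arrays gave -0.03 to 0.05. Under quantile normalization 30 chromosome 22 genes were held lower and 0 higher, and with arrays centred on their medians 16 and 0.

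The chromosome 22 genes described here were chosen from the 18 after their values were seen. TCF20, a transcriptional coregulator, measured 8.46, 8.56, 8.41, 8.39 and 8.48 in selected cultures, 8.34, 8.58, 8.43, 8.60 and 8.50 in stable cultures, and 8.86, 8.92, 8.91 and 8.76 in parental arrays. All resistant arrays lay close together below the parental ones, and TCF20 fell by 0.39 (SE 0.06, adjusted p = 0.0226). EIF3L, a subunit of translation initiation factor 3, fell by 0.44 (SE 0.09, adjusted p = 0.0486), with 11.50 to 12.03 in resistant and 12.17 to 12.38 in parental arrays. XPNPEP3, a mitochondrial aminopeptidase, fell by 0.50 (SE 0.10, adjusted p = 0.0472), and L3MBTL2, a Polycomb-related chromatin protein, by 0.33 (SE 0.06, adjusted p = 0.0285). Held without a call were XRCC6, the Ku70 subunit of DNA end joining, at -0.31 (SE 0.07, adjusted p = 0.0626), the RNA helicase DDX17 at -0.31 (SE 0.08, adjusted p = 0.114), the reductase CYB5R3 at -0.53 (SE 0.12, adjusted p = 0.0714) and the Polycomb protein CBX7 at -0.22 (SE 0.06, adjusted p = 0.113). In the 21 neighbouring genes from FAM227A to SNORD43, which is 1 of several overlapping windows of chromosome 22 with the same count and was chosen for its values, 5 genes were held lower and 0 of 21 differences were above 0, with a median of -0.27. These 5 include RPL3 and the small nucleolar RNA genes SNORD83B and SNORD43, which lie close together. Whether these genes vary independently was not tested. No run of 3 or more neighbouring genes was held.

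Over all genes 0.413% were held higher and 0.419% held lower. Chromosome 1 had 18 of 1863 genes held higher (0.966%) and 2 held lower (0.107%). On chromosome 4, 7 of 710 genes were held higher (0.986%) and 0 lower, and on chromosome 19, 12 of 1308 were held higher (0.917%) and 5 lower (0.382%). Besides chromosome 22, chromosomes 5, 13, 16 and 21 had 0 genes held higher, with 7 of 781, 5 of 316, 1 of 759 and 0 of 236 held lower. DNA copy number was not measured.

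**Figure D5:**
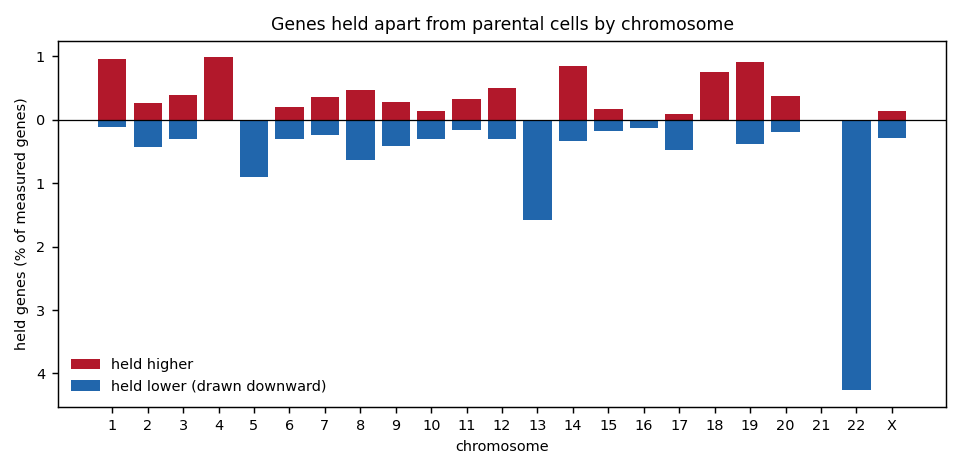
Share of measured genes (y axis, percent) held higher (red, upward) or held lower (blue, drawn downward) on each chromosome (x axis). Chromosome 22 has 4.26% of its genes held lower and 0 held higher, and the next highest share is 1.58% held lower on chromosome 13.

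Of the called genes nearest to the edge of the held rule, 5 lay inside and 5 outside it. Just inside were ZBTB41, TOR1AIP1, NENF, FOXRED2 and PNPLA3, with gaps between 0.0031 and 0.011. Just outside were FRAS1, MGST3, AIDA, ERMP1 and SDHD, with overlaps of 0.0017 to 0.0031. SDHD, a subunit of complex II and the 1 gene called of 32 on the oxidative phosphorylation list, thus rose by 0.34 (SE 0.07, adjusted p = 0.0486) without being held.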

How the data were processed

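RNA of 14 cultures was labelled with biotin and hybridised to Affymetrix whole-transcript arrays, per the labels' protocols. The deposited values were taken as log2 signal from their range (4.34 to 14.9). How the authors corrected background, normalized and summarised probes is not stated in any source used here. Of 32295 table rows, 19148 were named with 1 gene, 1376 with several and 11771 are unnamed here. RefSeq (GRCh38.p14) held 19118 of the 19148, and the row of highest mean was kept for 633 genes with several rows, which left 18398 genes.

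Groups follow the labels. For the pooled test, lmFit and eBayes of limma 3.58.1 (R 4.3.3), two-sided, were run on 5 subline means and 4 parental arrays, with Benjamini-Hochberg adjustment over 18398 genes and a threshold of 0.05. The selected minus stable test had subline as a block, and the F test between sublines had growth condition as a covariate. No set test was run. The fits were tested on simulated data. The selected and stable arrays of a subline share their cells by the labels, and their deviations from the group means correlated at 0.636, 0.050, 0.371, 0.546 and -0.468 for R1, R3, R5, R6 and R7.

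The comparison, the gene lists and the rule for named genes were chosen with earlier results of these data known. Named were CCNE1, CDK2, the 12 largest held and called rises and 12 largest falls, up to 4 members of each list by p, the extremes by growth state and by subline, and genes next to the held threshold. Symbols of small RNAs, uncharacterised loci, keratin-associated and olfactory receptor genes were skipped. Genes outside the rule, named after their values were seen, are LINC00312, QPCT, NEDD9, EGF, ANXA1, HIF1A, CD46, RPL3, UGT8, PGC, XPNPEP3, EIF3L, TCF20, L3MBTL2, CBX7, XRCC6, DDX17, CYB5R3, NPM1 and ARID5B, with the SNORD116 and zinc finger families. Alternatives were other scalings, variance models, weights, gene rows, filters and units of replication, a covariate of olfactory receptor signal, and leaving out each array or subline.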

Additional observations from a re-analysis of the deposited data

Results flagged for a closer look

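Among 81 named genes, 324 groups of 4 or 5 values were checked for a single value far from the rest, and 20 (6.17%) had one, where chance gives about 1 in 20. In selected cultures these were R6 for DEGS1 at 9.98 (others 10.48 to 10.65), R7 for TLR3 at 8.46, R5 for CASP4 at 7.45, R6 for FOSB at 9.16 and R1 for PGC at 8.30. In stable cultures they were R3 for DEGS1 at 10.79, R5 for TLR3 at 8.30, R3 for CKB at 10.86, R6 for MSANTD2 at 9.05, R1 for FOS at 9.46 (others 8.01 to 8.20) and R3 for XRCC6 at 10.38. Among subline means, R1 stood apart for MANEA at 9.96, VIT at 8.64 (others 7.38 to 7.54), ZNF251 at 8.41 and EFEMP1 at 7.77 (others 6.73 to 6.86), and R3 for ERMP1 at 10.74. In parental arrays, replicate 3 was low for DUSP1 at 10.04, FOXRED2 at 8.0 and ICAM1 at 8.44, and replicate 1 for ADAMTS8 at 8.14.

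For 14 named genes the difference between selected and stable cultures passed limma's test with subline as a block. FOS was higher in selected cultures by 1.94 (adjusted p = 0.00913), EGR1 by 0.97 (adjusted p = 0.0233), DUSP1 by 0.60 (adjusted p = 0.0425) and FOSB by 0.51 (adjusted p = 0.0269), and these 4 genes lay below the parental mean in both states. CTSL was higher in selected cultures by 0.65, QPCT by 0.48, CKB by 0.44, MGST3 by 0.43, ATP1B1 by 0.39, UGT8 by 0.37 and PGC by 0.34, with adjusted p between 0.0136 and 0.0463. RPS24, ZNF251 and RPL7A differed by -0.73, -0.58 and -0.42 (adjusted p = 0.00781, 0.0216 and 0.0233). With olfactory receptor signal as a covariate limma called 0 genes between these states (1309 at an unadjusted p under 0.05).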

How the results depend on the processing

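The pooled comparison called 177 genes. The count was 18 with a difference of at least 1, 45 with weight 2 for subline means, 1036 with estimated array weights, 562 with quantile normalization, 87 over all table rows, 11 with 14 arrays and subline as a random replicate block, 13 without a block and 1421 with olfactory receptor signal as a covariate. With one array or subline left out it ran from 6 (without parental array 4) to 273 (without the stable array of R6). It was 23 without parental array 1, 103 without parental array 2, 65 without R3, 75 without R5, 10 without R7, 68, 9, 45, 18 and 16 without the selected array of R1, R3, R5, R6 and R7, and 81 without the stable array of R7. The other 11 alternatives stayed within 1.5 times of 177. The split of 109 higher and 68 lower became 483 and 553 with array weights, 310 and 252 with quantile normalization and 44 and 43 over all rows.

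Genes held numbered 153. Quantile normalization gave 272, of which 98 were among the 153, a gap of at least 0.25 gave 4, and all table rows gave 234. Leaving out arrays only loosens the rule, and gave 188 to 339. DEGS1, KLK5, KLK7, CKB, FOXRED2, ICAM1, NENF, PNPLA3, GSR, POSTN, CBX7 and UGT8 were not held under quantile normalization. With arrays centred on their medians, FOXRED2, HIF1A, RPL3, CYB5R3 and DDX17 were not held. Under both scalings the median differences of the immediate early, ribosomal, interferon, lysosome, CD44 and integrin, and 19q12 lists kept their sign.

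The 906 calls between selected and stable cultures became 397 without the subline replicate block and 0 with the olfactory receptor covariate and the block (limma, 1309 at an unadjusted p under 0.05), and 159 to 688 with a subline left out. Calls between sublines, 22, became 0 without the growth condition term and 0 with quantile normalization (1629 and 2378 at an unadjusted p under 0.05 by limma), and 0 to 305 with a subline left out. The cause of these changes was not tested. None of the 81 named genes reversed under any of the 31 alternatives. Limits are the 4 parental arrays, 1 array per subline and state, the unstated processing, and median gaps of 0.040 and 0.054 between held and parental arrays.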

Other observations

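A family of small nucleolar RNAs and a family of transcription factors, both picked after their values were seen, showed further patterns. The SNORD116 RNAs come from many copies on chromosome 15 in the imprinted region of Prader-Willi syndrome, and near-identical copies cannot be told apart with certainty. Of 20 measured copies 5 fell and 0 rose in the resistant sublines, and 19 differences were below 0. Over all genes 0.370% were called lower and 0.592% higher, and 52.6% of differences were below 0. SNORD116-14 fell by 1.38 (SE 0.17, adjusted p = 0.0103) and SNORD116-24 by 1.19 (SE 0.14, adjusted p = 0.0103). No copy was held. The mean over copies was 5.56, 5.54, 5.67, 5.84 and 5.79 in the selected cultures of R1, R3, R5, R6 and R7, 6.45, 6.39, 5.88, 6.16 and 6.07 in their stable cultures, and 6.30, 6.37, 6.23 and 6.35 in parental arrays. All selected values lay below all others, while the stable values ran across the parental ones. Of 20 copies of SNORD115, from the same region, 0 were called, which says little with 0.962% of all genes called.

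Zinc finger genes of the ZNF series on chromosome 19, most of which encode repressors with KRAB domains, leaned upward. Of 221 measured, 6 rose and 0 fell, 6 were held higher and 0 lower, and 160 had a difference above 0, with a median of 0.09. Over all genes 0.592% were called higher and 0.370% lower, 0.413% were held higher and 0.419% lower. Differences were above 0 in 47.4% of all genes. Of 218 ZNF genes on other chromosomes 1 rose and 1 fell, 2 were held higher and 1 lower, and 122 were above 0, with a median of 0.03. The difference between these groups was not tested.

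Also held lower was NPM1, a nucleolar chaperone of ribosome assembly, at -0.21 (SE 0.06, adjusted p = 0.116, not called), with 12.54 to 12.83 in resistant and 12.91 to 13.03 in parental arrays. ARID5B, a DNA-binding protein, fell by 0.47 (SE 0.09, adjusted p = 0.0370) and was held.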
